A study of Arabidopsis thaliana with 12 samples.

Results

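The class III peroxidase genes of Arabidopsis thaliana were followed in roots exposed to ATP or to buffer, in the wild type and in the mutant dorn1-1. The set held 60 genes chosen by locus, of which 44 were measured, among 13286 genes measured in the whole data set. A gene counted as measured where a probe set listed it alone in the platform annotation, and the probe set with the highest mean over the 12 arrays stood for a gene that had several. Of the other members, 7 were covered only by probe sets that list several genes and 9 were not in the annotation used.

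Class III peroxidases are plant heme enzymes that are secreted to the cell wall and the vacuole. With hydrogen peroxide as oxidant they cross-link wall phenolics, extensins and lignin precursors, which stiffens the wall, and in another reaction cycle they can form reactive oxygen that loosens it. In roots, members of this large family are known from elongating root hairs, from the Casparian strip of the endodermis and from lignifying xylem, while others are known for their induction by wounding, pathogens or nutrient stress. ATP that leaves a cell is a signal of damage to its neighbours, and dorn1-1 carries an EMS-induced lesion in the lectin receptor kinase that binds it.

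There were 4 groups of 3 arrays, dorn1-1 with ATP, dorn1-1 with buffer, the wild type with ATP and the wild type with buffer, each harvested 30 min after treatment. The wild type was Col-0 carrying aequorin, a reporter of cytosolic calcium. Each array measured roots cut from a pool of 120 seedlings, 5 days old, so a replicate is a pool and not a plant. All groups, the controls included, had stood overnight in darkness in 2 mM MES and 10 mM CaCl2. The ATP dose is given as 100 mM in the sample titles and as 100 µM in the treatment protocol, and which holds was not settled. The question behind the comparisons is what ATP outside the cell does to root transcripts and how much of this needs the receptor.

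The values were deposited log2 signals, with array medians between 6.07 and 6.17. A probe set's signal depends on its own affinity, so signals order genes only roughly, and comparisons between groups were made within a probe set. The labelled tissue could be checked only in part, since 0 of 9 listed root markers were measured. The measured root hair markers, 2 of 11 listed, were the expansin genes EXPA7 and EXPA18, with mean signals of 6.49 and 6.43, near the median of all probe sets. Of 28 listed shoot markers, 5 photosynthesis genes were measured. Their mean log2 signal on an array lay between 10.25 and 11.01 in dorn1-1 with ATP, 8.72 and 11.76 in dorn1-1 with buffer, 10.85 and 11.64 in the wild type with ATP, and 9.38 and 10.23 in the wild type with buffer. A log2 signal has no true zero, and none of the 5 genes was near the lowest signal in the table, 1.74. The dorn1-1 buffer arrays stood apart, replicate 1 having the highest and replicate 2 the lowest photosynthesis mean of all 12. In the wild type the mean was 1.43 higher with ATP, with no overlap of the groups (exact permutation test, two-sided, p = 0.1, the smallest that 3 arrays against 3 allow).

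The 44 measured peroxidase genes covered nearly the whole range of signals. Of these, 26 had a mean above the median of all probe sets, 6.14, and 18 below it. A first class, called highly expressed here, held the 7 genes whose mean lay in the top 10% of all probe sets, above 9.33, and that were not on a list of stress-induced peroxidases. A second class held the 10 measured genes of the 15 on that stress list, and the remaining 27 formed the third. AT5G17820 lay just inside the limit at 9.47, and AT2G18980, AT3G01190 and AT1G71695 lay just outside it at 8.99, 8.97 and 8.96.

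The genes with the strongest signal were AT4G21960, named PRXR1 in RefSeq, AT5G64100, AT3G21770, the stress-list gene AT2G37130, and AT1G49570, with means over all arrays of 11.51, 11.42, 11.24, 11.03 and 10.89. Since affinities differ between probe sets, this order is not a ranking of their transcripts. The class also held AT4G33420, known from lignifying vessels, at 10.12, and AT4G30170 at 9.61. Among the stress-list genes, AT5G64120, which acts in wall integrity and defence, had 10.43, and AT5G39580, which is induced by several stresses, had 10.24. At the other end, the lignin gene AT5G05340 had a mean of 3.96 and the stress-list gene AT5G19880 had 2.98. The third class ran down to 2.74 for AT4G17690, and it included AT3G50990, known for wall loosening in the seed coat, at 3.33.

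**Figure D1:**
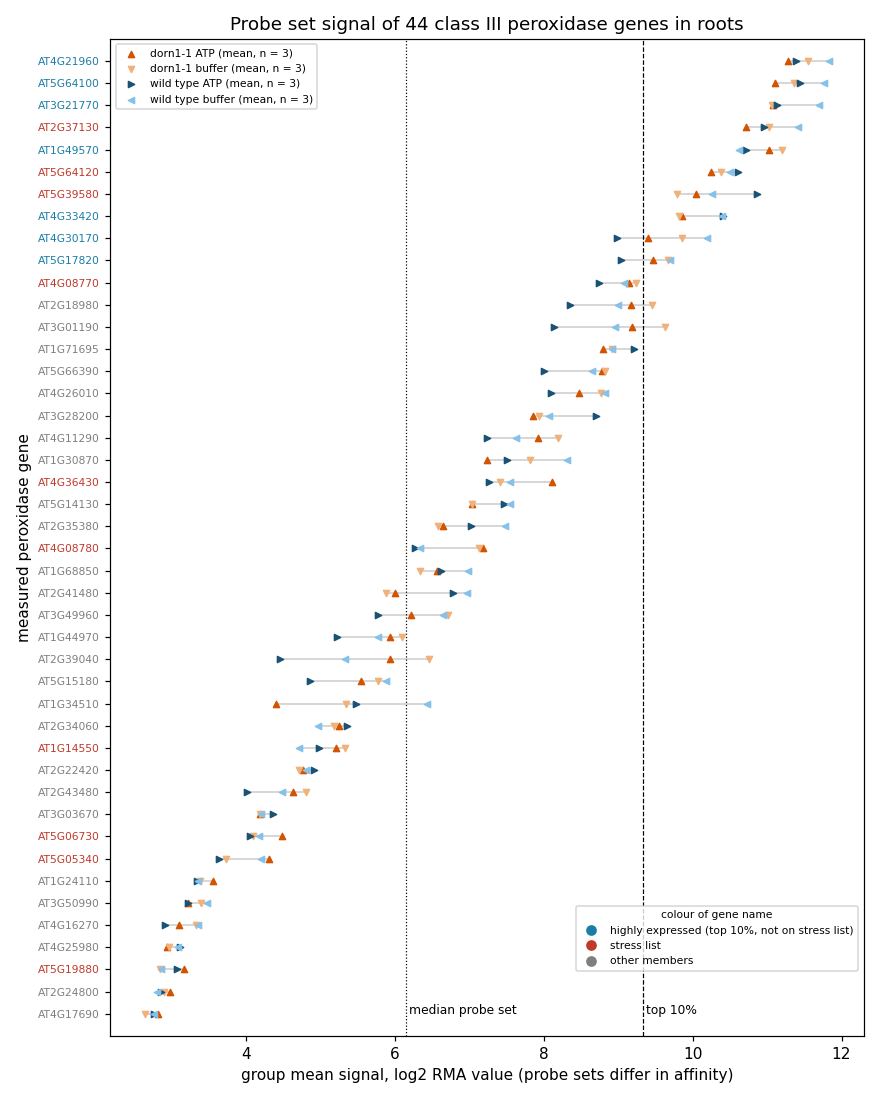
Mean log2 signal of each of the 44 measured peroxidase genes (rows, highest mean at the top) in the 4 groups, n = 3 arrays each; the dashed line marks the top 10% of probe sets at 9.33 and the dotted line the median probe set at 6.14. The 7 highly expressed genes and 3 stress-list genes lie right of the dashed line by their overall means, and the group means of AT1G34510 and AT2G39040 are spread widely.

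The peroxidase genes varied more among arrays of a group than most probe sets. Their median residual SD was 0.33 on the log2 scale, against 0.18 over all probe sets, and it was above that median for 36 of 44 genes. The residual SD ran from 0.11 for AT4G17690 to 0.70 for the stress-list gene AT4G36430. The array with the lowest photosynthesis mean, dorn1-1 buffer replicate 2, gave the highest of the 12 values for 13 genes. This is 29.5% of members, against 12.8% of all probe sets. Replicate 1 of that group, with the highest photosynthesis mean, gave the lowest value for 3 genes (6.82%), against 12.6% of all probe sets.

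In wild-type roots, most peroxidase genes had lower signal with ATP than with buffer, and a single gene passed the test. Of the 44 genes, 30 were lower and 14 higher, a share of 68.2% lower against 55.2% of all 22746 probe sets, and the median log2 difference was -0.33 against -0.03 over all. At an adjusted p under 0.05 in limma, 1 of 44 genes (2.27%) was called, against a background of 0.664%. At an unadjusted p under 0.05, 18 genes (40.9%) were lower and 3 (6.82%) higher, where the background was 12.4% and 9.8%. The 3 ATP values lay wholly below the 3 buffer values for 19 genes (43.2%) and wholly above for 2 (4.55%), against 19.2% and 13.9% of all probe sets. Probe sets with signal above the median tended lower as well, with 61.3% lower and a median of -0.09, while the 26 peroxidase genes above that median had 20 lower and a median of -0.37. The median over the 44 genes was -0.16, with 26 lower, when wild-type ATP replicate 1 was left out. Without dorn1-1 buffer replicate 1, 6 genes (13.6%) were called, all lower, near the 10.2% of all probe sets called in that fit. Without dorn1-1 buffer replicate 2, 2 genes (4.55%) were called, against 1.58%. In tissue RNA of this kind, fewer cells of a type and less RNA per cell cannot be told apart.

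The gene called was AT4G30170, of the highly expressed class. Its log2 signal was 9.11, 9.08 and 8.75 in wild-type roots with ATP, and 10.36, 10.18 and 10.03 with buffer. Every ATP array lay below every buffer array. AT4G30170 fell by 1.21 log2 units with ATP (SE 0.14), or 2.31-fold, at a limma adjusted p of 0.00649. In dorn1-1 it had 9.39, 9.53 and 9.28 with ATP and 9.68, 10.04 and 9.83 with buffer, again without overlap but closer together. The dorn1-1 difference was -0.45 (SE 0.14, unadjusted p = 0.00797), with a limma adjusted p of 1.00. The call in the wild type was lost without wild-type buffer replicate 2, where the limma adjusted p was 0.0507.

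Beyond AT4G30170, the lowest p in the wild type belonged to AT5G15180 and AT1G34510, neither of which passed. AT5G15180 had 4.95, 4.73 and 4.89 with ATP against 5.82, 6.22 and 5.58 with buffer, a log2 difference of -1.01 (SE 0.29, limma adjusted p = 0.101). All of its ATP arrays were below all buffer arrays. AT1G34510, a gene of root hair cells, had 5.95, 4.92 and 5.55 with ATP against 6.22, 6.79 and 6.24 with buffer, a difference of -0.95 (SE 0.28, limma adjusted p = 0.11).

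**Figure D2:**
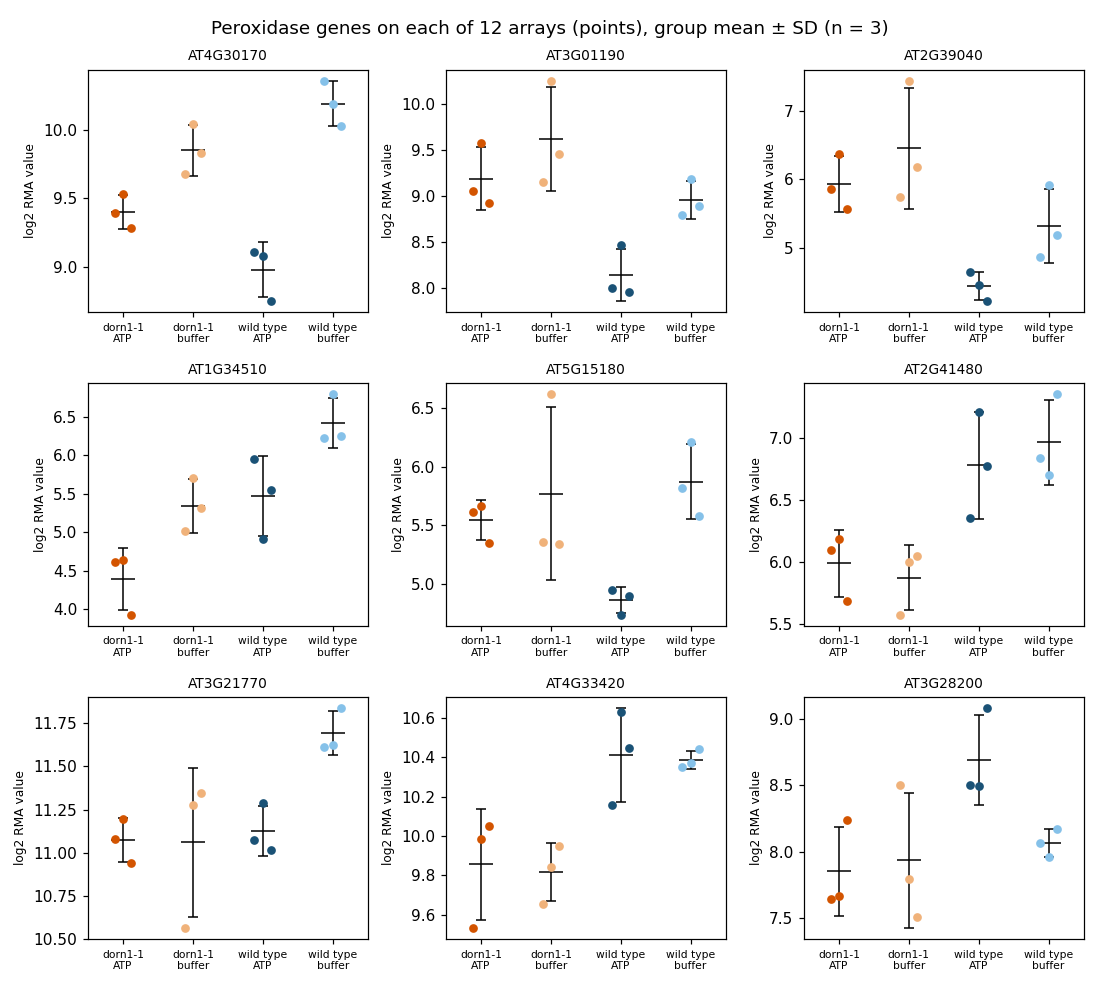
Log2 signal of 9 peroxidase genes on each of the 12 arrays (points), with group mean and SD (black, n = 3 each); the vertical scale differs between panels. For AT4G30170 the wild-type ATP arrays, 8.75 to 9.11, lie below all others, and for AT2G41480 all 6 dorn1-1 arrays lie below all 6 wild-type arrays.

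The highly expressed genes had 5 of 7 lower in the wild type with ATP, with a median difference of -0.45. The probe sets in the top 10% of signal had a median of -0.11 and 65.8% lower, so the share of 5 in 7 (71.4%) is near theirs. PRXR1 (AT4G21960) had 11.12, 11.65 and 11.39 with ATP against 11.65, 11.83 and 12.02 with buffer, a log2 difference of -0.45 (SE 0.16) with groups that touched but did not cross. AT5G64100, reported to act in root hair growth, had 11.28, 11.61 and 11.44 with ATP against 11.87, 11.69 and 11.71 with buffer, a difference of -0.32 (SE 0.16). AT3G21770 had 11.07, 11.29 and 11.02 with ATP against 11.61, 11.63 and 11.84 with buffer, a difference of -0.57 (SE 0.18). For AT5G64100 and AT3G21770 the ATP arrays were the lower 3 throughout. AT5G17820, which is on the root hair list, had a difference of -0.65 (SE 0.20). The exceptions in this class were AT1G49570, with 10.36, 10.95 and 10.82 with ATP against 10.02, 10.79 and 11.05 with buffer, and AT4G33420, with 10.16, 10.63 and 10.45 against 10.35, 10.37 and 10.44. Their differences were 0.09 (SE 0.27) and 0.02 (SE 0.16), and their groups overlapped. None of these 6 genes passed, with limma adjusted p between 0.116 and 0.944.

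The stress-list genes went both ways. Of these, 4 of 10 were higher and 6 (60%) lower in the wild type with ATP, with a median of -0.10. That share is near the 55.2% of all probe sets lower. Limma called 0 of the 10. At an unadjusted p under 0.05, 1 (10%) was higher and 2 (20%) were lower, against 9.8% and 12.4% of all probe sets. The highest difference was that of AT5G39580, 0.61 (SE 0.23, limma adjusted p = 0.165), with 11.02, 10.83 and 10.75 with ATP against 10.46, 10.29 and 10.00 with buffer. Its 3 ATP values were above all 3 buffer values. AT2G37130 had 10.91, 11.22 and 10.74 with ATP against 11.34, 11.49 and 11.42 with buffer, a difference of -0.46 (SE 0.21, limma adjusted p = 0.225). Prx37 (AT4G08770), whose overexpression restrains growth, had a difference of -0.35 (SE 0.12, limma adjusted p = 0.143). The difference was 0.12 (SE 0.24) for AT5G64120, with 10.53, 10.96 and 10.35 with ATP against 10.86, 10.65 and 9.98 with buffer, where the groups overlapped. AT5G64120 is a near neighbour of AT5G64100 on chromosome 5, which had a difference of -0.32. The elicitor-responsive gene AT1G14550 had a difference of 0.27 (SE 0.31), and AT4G36430 and AT5G05340, the members with the largest spread, had -0.28 (SE 0.47) and -0.57 (SE 0.43).

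Of 7 peroxidases on the root hair list, 5 were measured, and all 5 had lower signal in the wild type with ATP, between -0.95 and -0.65, with a median of -0.80. None was called by limma, the lowest adjusted p being 0.11. All 5 had an unadjusted p under 0.05, against 12.4% of all probe sets lower at that limit. The list was chosen with earlier results of these data known. It does not hold every peroxidase reported to act in root hair growth, since AT5G64100, described above, is not on it. AT3G49960, known from root hairs, had a difference of -0.87 (SE 0.32), AT4G26010, which acts in root hair growth, had -0.72 (SE 0.24), and AT1G30870 had -0.80 (SE 0.26). AT1G30870 had 7.74, 7.43 and 7.36 with ATP against 8.38, 8.61 and 7.93 with buffer, so every ATP array was lower. The root hair markers EXPA7 and EXPA18 were lower too, with differences of -0.44 for EXPA7 and -0.91 for EXPA18 and limma adjusted p of 0.326 and 0.0752. Their part in the result was not tested.

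Of 5 peroxidases on the endodermal list, 3 were measured, and all were lower in the wild type with ATP, with differences of -0.64 (SE 0.27) for PRX72 (AT5G66390), which acts in lignification, -0.55 (SE 0.25) for AT1G44970 and -0.39 (SE 0.19) for AT4G11290. None was called by limma, with 2 of 3 (66.7%) lower at an unadjusted p under 0.05, against 12.4% of all probe sets. The 2 measured endodermis markers of 10 listed, AT1G61590 and GSO1 (AT4G20140), had differences of -0.77 and -0.52, with limma adjusted p of 0.108 and 0.176. Their part in the result was not tested.

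Among the other genes, the highest difference in the wild type was that of AT3G28200, 0.63 (SE 0.25, limma adjusted p = 0.178), with 8.50, 8.49 and 9.09 with ATP against 8.07, 7.96 and 8.17 with buffer. Every ATP array was above every buffer array for this gene. AT2G34060 had a difference of 0.39 (SE 0.14), and the 2 genes, with AT5G39580, made up the 3 that were higher at an unadjusted p under 0.05.

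The photosynthesis mean was higher on every wild-type ATP array than on any wild-type buffer array, so a further fit took it as a covariate. The median peroxidase difference was then -0.16, against 0.00 over all probe sets, and 30 of 44 genes were lower, against 49.1% of all probe sets. Of the 30 genes lower without the covariate, 28 were lower with it, and AT2G41480 and AT4G08780 turned to values above 0. An unadjusted p under 0.05 was reached by 5 genes (11.4%), near the 9.82% of all probe sets in that fit, where the fit without the covariate had 21 genes (47.7%) against 22.2%. AT4G30170 was still called, with a difference of -1.07 (limma, adjusted p = 0.0195). For the highly expressed genes the median was -0.22, with 5 of 7 lower. Because the covariate did not overlap between the wild-type groups, this fit cannot fully separate it from ATP. Its spread within a group was widest in dorn1-1 with buffer, with an SD of 1.52 against 0.40 to 0.49 in the other groups.

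In dorn1-1 roots, no peroxidase gene passed the test of ATP against buffer. Of the 44 genes, 28 (63.6%) were lower with ATP and 16 higher, against 43.9% of all probe sets lower, and the median was -0.11 against 0.02 over all. Limma called 0 of the 44 genes and 0% of all probe sets in this comparison. At an unadjusted p under 0.05, 3 genes (6.82%) were lower and 0 higher, against 0.875% lower and 1.42% higher of all probe sets. The groups did not overlap for 3 genes, all lower, against 1.8% of probe sets lower and 3.71% higher. Without dorn1-1 buffer replicate 2, 22 genes were lower and the median was -0.01, and without dorn1-1 buffer replicate 1, replicate 3 or dorn1-1 ATP replicate 1 it was -0.17, -0.06 and -0.06.

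The 3 genes at an unadjusted p under 0.05 in dorn1-1 were AT1G34510, AT4G30170, described above, and AT1G30870. AT1G34510 had 4.61, 4.64 and 3.93 in dorn1-1 with ATP and 5.01, 5.71 and 5.31 with buffer, every ATP array lying lower. Its difference of -0.95 (SE 0.28, unadjusted p = 0.00603, limma adjusted p = 1.00) was as large as in the wild type. AT1G30870 had 7.67, 7.22 and 6.80 with ATP and 7.45, 8.30 and 7.70 with buffer, with overlap, and a difference of -0.59 (SE 0.26), with an unadjusted p of 0.0438 and a limma adjusted p of 1.00. All 5 measured peroxidases of the root hair list were lower with ATP in dorn1-1 as well, with a median of -0.50. The stress-list genes had 6 of 10 higher and 4 (40%) lower, with a median of 0.16. The share lower is near the 43.9% of all probe sets. The highest difference on this list was that of AT4G36430, 0.69 (SE 0.47). Its dorn1-1 arrays had 8.64, 8.38 and 7.29 with ATP and 8.46, 6.37 and 7.40 with buffer, so the groups overlapped widely. Of the 30 genes lower in the wild type, 21 (70%) were also lower in dorn1-1, against a background of 53.7%. Of the 14 genes higher in the wild type, 7 (50%) were also higher in the mutant, where the background was 68.1%. The 70% is close to the 63.6% of the 44 genes that were lower in dorn1-1 whatever their wild-type direction. The ATP responses of the genotypes share no arrays.

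**Figure D3:**
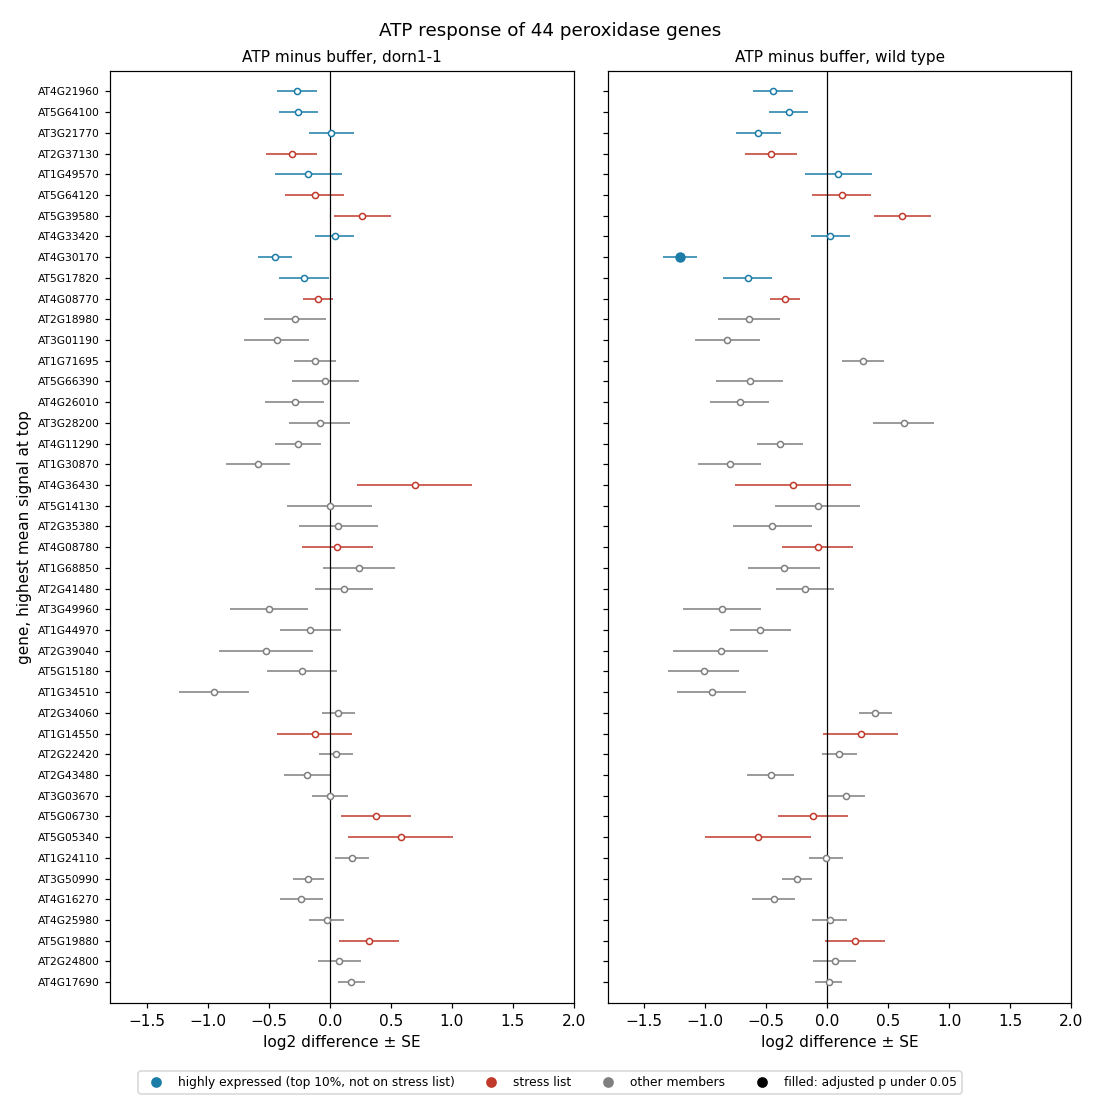
Log2 difference between ATP and buffer (point, with SE) for each of the 44 peroxidase genes in dorn1-1 (left) and the wild type (right), 3 arrays a group; filled points have a limma adjusted p under 0.05. AT4G30170 in the wild type, -1.21, is the filled point, and the points lie left of 0 for 28 genes in dorn1-1 and 30 in the wild type.

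Whether the responses differed between genotypes was tested as the dorn1-1 difference minus the wild-type difference. No peroxidase gene was called by limma, against 0.00879% of all probe sets, so no gene's response was shown to differ. The value was above 0 for 33 of 44 genes and below it for 11 (25%), against 40.9% of all probe sets below, and the median was 0.19 against 0.06. At an unadjusted p under 0.05, 2 genes (4.55%) were above 0 and 0 below, where the background was 4.29% and 2.68%, so that count is near the background. The 2 were AT4G30170, with 0.76 (SE 0.20, unadjusted p = 0.00247, limma adjusted p = 0.641), and AT3G21770, with 0.58 (SE 0.26, unadjusted p = 0.0459, limma adjusted p = 0.712). AT3G21770 had 11.08, 11.20 and 10.94 in dorn1-1 with ATP and 10.56, 11.27 and 11.34 with buffer, with overlap and a difference of 0.01 (SE 0.18). In the other direction, AT3G28200 had -0.71 (SE 0.36, limma adjusted p = 0.714), its dorn1-1 values being 7.65, 7.67 and 8.24 with ATP and 8.50, 7.79 and 7.51 with buffer. For AT1G34510 the value was -0.00, with a 95% interval between -0.88 and 0.88. In the fit with the photosynthesis covariate, 19 of 44 genes were below 0 and the median was 0.05.

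In buffer, dorn1-1 and wild-type roots did not differ in any peroxidase gene by an adjusted p under 0.05 in limma, which called 0.0659% of all probe sets. Of the 44 genes, 29 (65.9%) were lower in dorn1-1, against 52.8% of all probe sets, with a median of -0.07 against -0.01. At an unadjusted p under 0.05, 8 (18.2%) were lower and 4 (9.09%) higher, against 6.66% and 6.25%. The groups did not overlap for 8 genes lower and 3 higher in dorn1-1 (18.2% and 6.82%), against 11.1% and 8.19% of all probe sets.

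The lowest p in buffer was that of PRX25 (AT2G41480), a gene of lignin and wall formation, with 5.58, 6.00 and 6.05 in dorn1-1 and 6.84, 6.70 and 7.35 in the wild type. Every dorn1-1 array lay below every wild-type array, and the mean difference was -1.09 (SE 0.24, 2.12-fold, limma adjusted p = 0.116). AT1G34510 had 5.01, 5.71 and 5.31 in dorn1-1 and 6.22, 6.79 and 6.24 in the wild type, a difference of -1.08 (SE 0.28, limma adjusted p = 0.173). AT4G33420 had 9.66, 9.84 and 9.95 in dorn1-1 and 10.35, 10.37 and 10.44 in the wild type, a difference of -0.57 (SE 0.16, limma adjusted p = 0.184). In all of these the dorn1-1 arrays were the lower ones without overlap.

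The highly expressed genes had 6 of 7 (85.7%) lower in dorn1-1 in buffer, with a median of -0.34, where the top 10% of probe sets had 53.9% lower and a median of -0.03. PRXR1 had 11.39, 11.55 and 11.72 in dorn1-1 and 11.65, 11.83 and 12.02 in the wild type, and AT5G64100 had 11.04, 11.45 and 11.60 in dorn1-1 and 11.87, 11.69 and 11.71 in the wild type. Their differences were -0.28 (SE 0.16) and -0.39 (SE 0.16). For AT3G21770 the difference was -0.63 (SE 0.18, limma adjusted p = 0.204), with all dorn1-1 arrays lower. AT1G49570 went the other way, with 10.67, 11.40 and 11.52 in dorn1-1 and 10.02, 10.79 and 11.05 in the wild type, a difference of 0.58 (SE 0.27) with overlap. On the stress list, AT2G37130 had 10.54, 11.28 and 11.27 in dorn1-1 and 11.34, 11.49 and 11.42 in the wild type, while AT5G64120 had 10.31, 10.22 and 10.60 in dorn1-1 and 10.86, 10.65 and 9.98 in the wild type. The first had a difference of -0.39 (SE 0.21) without overlap and the second -0.12 (SE 0.24) with overlap.

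In the fit with that covariate, 4 peroxidase genes were called in buffer, AT2G41480 and AT3G21770 lower in dorn1-1, and AT2G39040 and AT3G01190 higher, with limma adjusted p between 0.0244 and 0.0407. These are 9.09% of the genes, against 1.71% of all probe sets called in that fit. The photosynthesis mean itself was 0.27 higher in dorn1-1 (exact permutation test, two-sided, p = 0.9), with a spread in dorn1-1 of 1.52 (SD, n = 3).

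With ATP, 3 of 44 peroxidase genes differed between dorn1-1 and wild-type roots at an adjusted p under 0.05 in limma. This is 6.82%, close to the background of 6.68% of all probe sets, so the count is not particular to the family. Of the 44 genes, 25 were higher and 19 (43.2%) lower in dorn1-1, against 47.4% of all probe sets lower, and the median was 0.10 against 0.01. At an unadjusted p under 0.05, 11 (25%) were higher and 6 (13.6%) lower, against 14.1% and 7.63%. The groups did not overlap for 12 genes higher and 6 lower (27.3% and 13.6%), against 17.1% and 9.89%. Without dorn1-1 buffer replicate 1 the number called was 13 (29.5%, against 11.6% of all probe sets in that fit), and without dorn1-1 buffer replicate 2 it was 8 (18.2%, against 7.85%). Without wild-type buffer replicate 1, wild-type ATP replicate 3, dorn1-1 buffer replicate 3, or dorn1-1 ATP replicate 1 or 2 it was 0. The fits with 0 called 1.2% to 5.39% of all probe sets. The number was 1 (2.27%) without wild-type buffer replicate 2 or 3, against 4.65% and 5.28%. It was 2 (4.55%) without wild-type ATP replicate 1 or 2, against 5.16% and 2.55%. Without dorn1-1 ATP replicate 3 it was 4 (9.09%, against 5.55%). This comparison shares the ATP arrays with the responses above and the values are not independent of them.

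AT3G01190 had 9.06, 9.57 and 8.93 in dorn1-1 with ATP against 7.99, 8.46 and 7.96 in the wild type, with every dorn1-1 array higher. It was 2.07-fold higher in dorn1-1, by 1.05 log2 units (SE 0.26, limma adjusted p = 0.0369). In buffer it had 9.15, 10.25 and 9.46 in dorn1-1 and 8.79, 9.19 and 8.89 in the wild type, which overlap, and a difference of 0.66 (SE 0.26, limma adjusted p = 0.335).

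AT2G39040 had 5.86, 6.37 and 5.57 in dorn1-1 with ATP against 4.65, 4.47 and 4.23 in the wild type. These groups stood well apart, and the gene was 2.80-fold higher in dorn1-1, by 1.48 (SE 0.39, limma adjusted p = 0.0428). In buffer it had 5.74, 7.44 and 6.19 in dorn1-1 and 4.86, 5.91 and 5.19 in the wild type, with a difference of 1.13 (SE 0.39, limma adjusted p = 0.273) and overlap. The high dorn1-1 buffer value was replicate 2, the array with the lowest photosynthesis mean.

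AT1G34510 was the gene lower in dorn1-1, with 4.61, 4.64 and 3.93 against 5.95, 4.92 and 5.55 in the wild type with ATP. It was 2.11-fold lower, a log2 difference of -1.08 (SE 0.28, limma adjusted p = 0.0442), and in buffer the difference had the same size, -1.08. Taking all groups together, AT1G34510 averaged 4.39 ± 0.40 in dorn1-1 with ATP, 5.34 ± 0.35 in dorn1-1 with buffer, 5.47 ± 0.52 in the wild type with ATP and 6.42 ± 0.32 in the wild type with buffer (SD, n = 3 each). The middle pair of groups did not differ beyond their spread. Each of the 3 calls was lost in 9 of the 12 fits that left out 1 array, where the highest limma adjusted p was 0.160 for AT3G01190, 0.174 for AT2G39040 and 0.154 for AT1G34510.

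**Figure D4:**
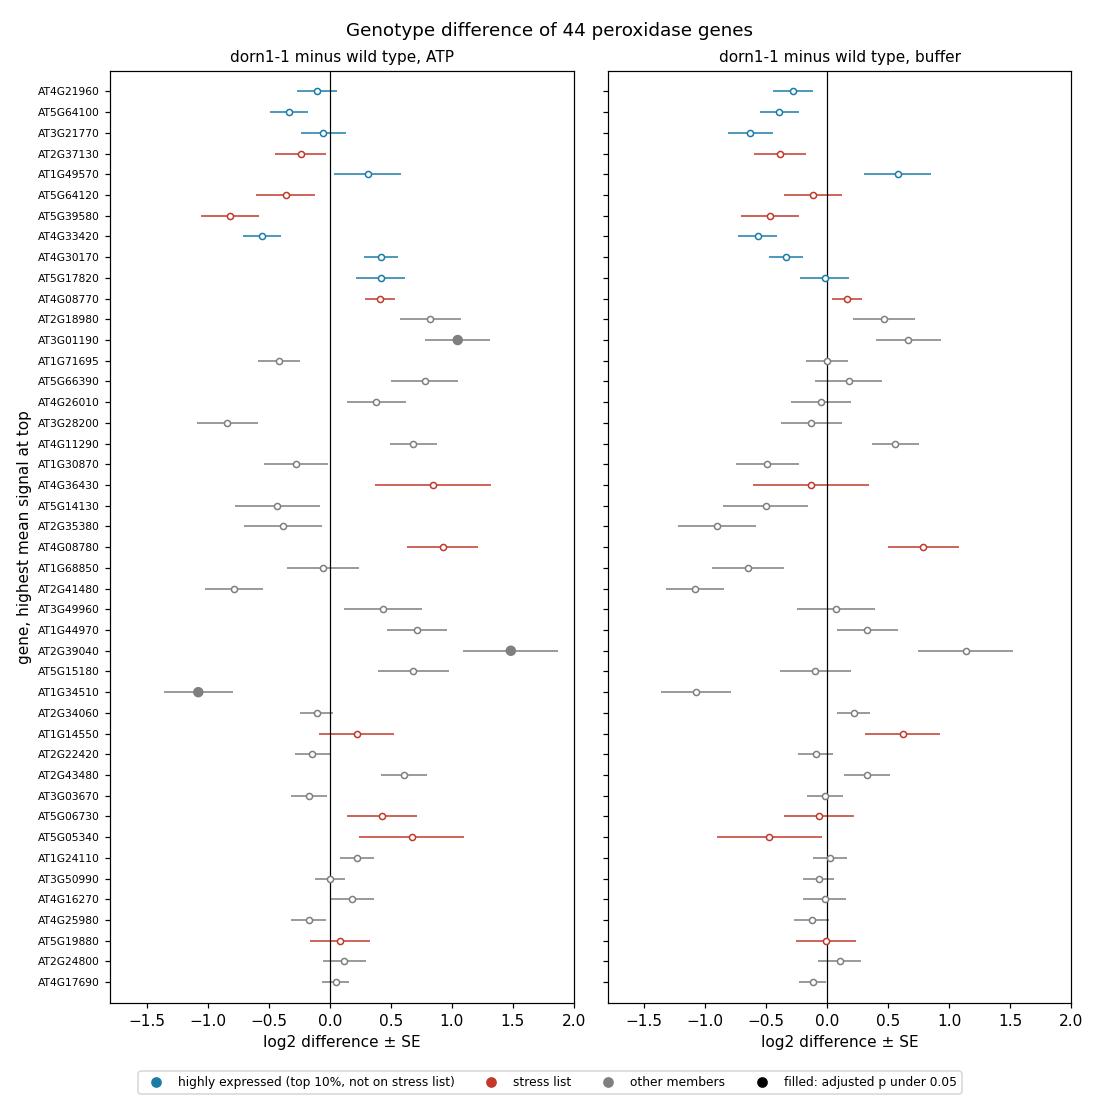
Log2 difference between dorn1-1 and the wild type (point, with SE) for each of the 44 peroxidase genes with ATP (left) and with buffer (right), 3 arrays a group; filled points have a limma adjusted p under 0.05. The 3 filled points with ATP are AT3G01190 at 1.05, AT2G39040 at 1.48 and AT1G34510 at -1.08, and there are none with buffer.

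Other genes did not pass the test with ATP. The endodermal-list genes were all 3 higher in dorn1-1 without overlap, against 17.1% of all probe sets. Their differences were 0.68 (SE 0.19, limma adjusted p = 0.0541) for AT4G11290, 0.71 (SE 0.25, limma adjusted p = 0.118) for AT1G44970 and 0.78 (SE 0.27, limma adjusted p = 0.122) for AT5G66390. PRX25 had 6.10, 6.19 and 5.69 in dorn1-1 and 6.35, 7.21 and 6.77 in the wild type, a difference of -0.79 (SE 0.24, limma adjusted p = 0.0714), and as in buffer no dorn1-1 array reached the wild-type range. AT4G33420 had 9.53, 9.99 and 10.05 in dorn1-1 and 10.16, 10.63 and 10.45 in the wild type, a difference of -0.56 (SE 0.16, limma adjusted p = 0.0567), with the dorn1-1 arrays lower throughout. On the stress list, AT5G39580 had 9.86, 9.61 and 10.68 in dorn1-1 and 11.02, 10.83 and 10.75 in the wild type, a difference of -0.82 (SE 0.23, limma adjusted p = 0.0599). The related and adjacent genes Prx37 (AT4G08770) and AT4G08780, whose probes may not separate them fully, were 0.41 (SE 0.12) and 0.93 (SE 0.29) higher in dorn1-1, with limma adjusted p of 0.0688 and 0.0819.

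None of the genes with the strongest signal passed between genotypes with ATP. PRXR1 had 11.10, 11.52 and 11.22 in dorn1-1 and 11.12, 11.65 and 11.39 in the wild type, AT5G64100 had 10.87, 11.26 and 11.20 against 11.28, 11.61 and 11.44, and AT1G49570 had 10.92, 10.98 and 11.16 against 10.36, 10.95 and 10.82. AT2G37130 had 11.06, 10.49 and 10.60 in dorn1-1 and 10.91, 11.22 and 10.74 in the wild type, and AT5G64120 had 10.17, 9.97 and 10.60 against 10.53, 10.96 and 10.35. The dorn1-1 values of AT5G64100 lay just below those of the wild type, the ranges of the others overlapped, and the log2 differences ran between -0.36 and 0.31. AT5G15180 had 5.61, 5.66 and 5.35 in dorn1-1 with ATP and 5.35, 6.62 and 5.34 with buffer, and with ATP it was 0.68 (SE 0.29, limma adjusted p = 0.193) higher than in the wild type.

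**Figure D5:**
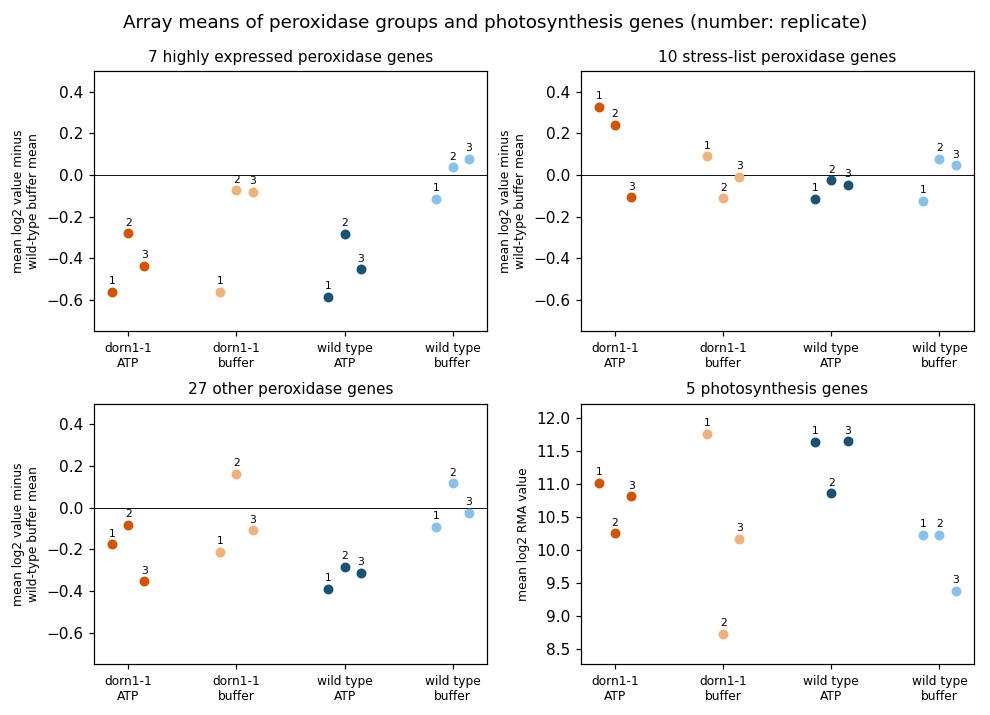
Array means of the 7 highly expressed, 10 stress-list and 27 other peroxidase genes, each as log2 signal minus the wild-type buffer mean, and the mean log2 signal of 5 photosynthesis genes (numbers beside points are replicates). The photosynthesis mean of dorn1-1 buffer ranges between 8.72 and 11.76, and the wild-type ATP arrays lie below all wild-type buffer arrays for the highly expressed and the other genes.

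Genes of related pathways were few on named probe sets. Of the NADPH oxidases, which make the superoxide that feeds peroxidases, 3 of 10 were measured. All 3 were lower with ATP in both genotypes, with median differences of -0.17 in dorn1-1 and -0.19 in the wild type. Of all probe sets, 43.9% were lower in dorn1-1 and 55.2% in the wild type. No NADPH oxidase had an unadjusted p under 0.05 in limma in either genotype. Of the enzymes of monolignol synthesis, 2 of 17 were measured, HCT with a difference of -0.38 and CCR2 with 0.59 in the wild type. Of the laccases, which also polymerise lignin, 1 of 17 was measured, LAC16, with -0.55 in the wild type. Of the enzymes that remove hydrogen peroxide inside cells, 2 of 17 were measured, the ascorbate peroxidases TAPX and SAPX. No gene of these 4 lists was called by limma in any of the 5 comparisons. At an unadjusted p under 0.05, the ATP response of the wild type had LAC16 and SAPX (-0.45) lower and TAPX, a chloroplast enzyme, higher by 1.36. At that limit, 12.4% of all probe sets were lower and 9.8% higher. The mean signal of LAC16 was 3.29, below the median of all probe sets. TAPX had 9.00, 7.47 and 8.52 with ATP against 7.09, 7.48 and 6.34 with buffer in the wild type, with overlap.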

How the data were processed

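RNA extracted from roots was run on 12 one-colour arrays, per the labels. As deposited by the authors, the table holds log2 signals made with RMA in affy, per the submitters' processing notes, without versions or settings in the sources used here. RMA gives arrays that are processed jointly the same distribution, and it shrinks differences close to background. Groups were read from the sample titles.

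Of 22810 probe sets, 64 controls were dropped. The 22746 others entered a limma (version 3.58.1, R 4.3.3) model of 4 group means, moderated by empirical Bayes. For each of 5 contrasts, p-values were adjusted over all probe sets by the Benjamini-Hochberg method, and those below 0.05 were called. Photosynthesis means were compared with two-sided exact permutation tests. The model was also run on simulated data with noise independent between arrays and probe sets. Such data leave out deviations of an array shared by many probe sets, so the run does not test their effect on the calls. Replicates are biological per the labels, and p-values measure the spread between these pools. Plots used matplotlib 3.10.9 (Python 3.11.15).

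The annotation covers 14016 probe sets, of which 13513 list 1 gene and 503 several. Of those with 1 gene, 13436 matched the RefSeq gene table of TAIR10.1. That table gave the locus by which genes were assigned to the lists, and names and chromosomes. The names PRX25 and PRX72 are not from it. Related peroxidases may share probes. The receptor kinase gene was not analysed here. The peroxidase set, the lists of stress, root hair, endodermal, marker and related pathway genes, and the tests were chosen with earlier results of these data known. Genes shown on every array were those called in any contrast, the 3 with the lowest p in each contrast and the 5 with the highest mean. Measured neighbours of these within 20 in locus number were shown too. Outside this rule, array values were given for AT5G39580 and AT4G36430. These had the highest ATP difference on the stress list in the wild type and in dorn1-1, respectively. Deviations of arrays with the same replicate number correlated between -0.28 and 0.56, and 5 of 12 arrays correlated best with their own number, so the numbers were not taken to pair arrays.

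Each result was recomputed with the deposited values rescaled (quantile, median or cyclic loess), without probe sets under the 40th percentile of mean signal, with trended and robust moderation, with weights per array, with replicate number as a block, from only the groups compared, without probe sets that can bind several genes, with the photosynthesis mean as a covariate, and without each array in turn.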

Additional observations from a re-analysis of the deposited data

How the results depend on the processing

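None of 15 differences, those called or among the 3 lowest p of a contrast, changed direction under the alternatives run. They were picked for a low p, so a change of direction was unlikely from the start. Some alternatives, such as trended and robust moderation, leave a log2 difference as it was. Outside the 15, PRX25 (AT2G41480) in the wild-type response was -0.18, and 0.16 with the photosynthesis covariate. For the wild-type ATP response, 1 peroxidase gene was called as reported. The number was 20 with array weights (3 higher, 17 lower), or 45.5% against 27.3% of all probe sets in that fit. In a fit of the groups compared alone it was 11, or 25% against 11%. With an array left out it was 0 to 6. The 0 came without wild-type buffer replicate 2, against 0.0264%, and the 6 without dorn1-1 buffer replicate 1, or 13.6% against 10.2%. For dorn1-1 against the wild type in buffer, with 0 called, the number was 10 with array weights, or 22.7% against 11.3%. With that covariate it was 4, or 9.09% against 1.71%. It was 0 in every fit without an array, against 0.00879% to 1.38% of all probe sets. With ATP, where 3 were called, it was 5 with quantile scaling (11.4% against 6.85% of all probe sets in that fit). It was 6 with cyclic loess (13.6% against 6.58%), with the groups compared alone (13.6% against 6.4%) and with the covariate (13.6% against 6.34%). Without dim probe sets, where 30 members were tested, it was 6 (20% against 12.2%). Array weights gave 12 (27.3% against 13.5%). With an array left out it was 0 to 13, the 13 (29.5% against 11.6%) without dorn1-1 buffer replicate 1. With the replicate number as a block, 2 were called in the wild-type response (4.55% against 1.97%) and 5 between genotypes with ATP (11.4% against 7.56%). The other comparisons had 0 in that fit. The dorn1-1 response and the difference between responses had 0 members called under every alternative run. Over all probe sets, the number called ran from 6 to 6203 in the wild-type response (151 as reported), 0 to 12 in the dorn1-1 response (0), 1 to 6 for the difference between responses (2), 1 to 2568 between genotypes in buffer (15) and 272 to 3067 with ATP (1519). The cause of these shifts was not tested. Probe sets with signal near background were kept, and how far they limit the low-signal genes is unknown.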
